A study of Saccharomyces cerevisiae with 16 samples.

Results

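The 200 nucleotides examined here, positions 281 to 480 of the 35S pre-rRNA profile, form the central stretch of the 5' external transcribed spacer (5' ETS) of Saccharomyces cerevisiae, bounded by both segments assigned to pairing with the hinge regions of the U3 snoRNA. Members were chosen by position alone. Positions 281 to 291 are the segment assigned to the 3' hinge of U3, positions 470 to 479 the segment assigned to the 5' hinge, and 178 nucleotides lie between them. DMS reads out A and C, of which the stretch held 98 (59 A and 39 C) among 3042 in the whole profile and 1236 in the SSU part, which is all of the profile up to cleavage site A2.

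The 5' ETS is transcribed ahead of 18S rRNA and is cut away and degraded during maturation of the small subunit. U3 is a box C/D snoRNA that guides folding and cleavage rather than base modification. Its hinges pair with the 5' ETS and anchor the snoRNA in the small subunit (SSU) processome, while its box A regions pair with the pre-rRNA of 18S and hold the central pseudoknot of 18S apart. Has1 is a nucleolar DEAD-box RNA helicase of ribosome assembly.

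SSU processomes had been isolated through TAP-tagged Utp10, one of their subunits, from cells in YPD at mid-log phase. All cells thus carried tagged Utp10, and they differed in Has1, which was either wild type (Has1-WT, below WT) or carried the H375A substitution (Has1-H375A, below H375A). Each genotype had 4 libraries from a 5 min exposure at 30 °C to 1% DMS (dimethyl sulfate) and 4 untreated control libraries (NC), described by the submitters as biological replicates, 16 in all. DMS methylates unpaired and exposed A and C on the pairing face, and DMS-MaPseq reads the methylated base as a mutation in the cDNA. The mutation rate of a site is its mutated reads as a percentage of its effective depth, the reads of sufficient quality that cover it. Particles are averaged in each library, so fewer particles with an exposed base and less exposure in each particle cannot be told apart.

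The sequences that the results turn on are given 5' to 3' as RNA. The first line runs from the start of the 3' hinge segment to position 326 and has in capitals the 10 sites whose DMS rate differed between genotypes there. The next lines have every A and C of the hinge segments in capitals, since these are all the bases that DMS can report on in them.
positions 281 to 326: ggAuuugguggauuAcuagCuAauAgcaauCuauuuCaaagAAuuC
3' hinge segment, 281 to 291: ggAuuuggugg
5' hinge segment, 470 to 479: uCAAAgAgug
The 3' hinge segment is rich in G and U, and A283 is its only readable base. The 5' hinge segment has 5, namely C471, A472, A473, A474 and A476.

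Median effective depth over the stretch ran from 1121.5 to 4676.5 reads in the WT DMS libraries, from 1086.5 to 5162.5 in WT untreated, from 660 to 11203 in H375A DMS and from 719.5 to 13660 in H375A untreated. A rate near 1% had a 95% Wilson interval of 0.515% to 2.17% at 660 reads and of 0.849% to 1.18% at 13660 reads, intervals that cover counting error only. Replicates 1 and 4 of both genotypes were the shallow ones. Replicate 1 also stood apart in overall DMS rate. Its scaling factor, the median ratio of a library's rates to those of all 8 DMS libraries over 594 sites, was 0.847 for WT and 0.864 for H375A, with 1.03 to 1.13 for the other 6. Rates called scaled below were divided by this factor, so that a change between genotypes is relative to the median site.

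DMS raised the mutation rate over the stretch in both genotypes. Over the 98 A and C, the mean rate was 1.27% ± 0.13 (SD, n = 4) with DMS and 0.364% ± 0.023 without in WT, a ratio of 3.48. In H375A the means were 1.21% ± 0.097 and 0.369% ± 0.044 (SD, n = 4), a ratio of 3.27. Every DMS library lay above every untreated library of its genotype, with 1.08% to 1.36% against 0.341% to 0.396% in WT and 1.07% to 1.29% against 0.310% to 0.415% in H375A. A carried more of the DMS signal than C, with means of 1.44% for A and 1.00% for C in WT, and of 1.32% for A and 1.03% for C in H375A.

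By edgeR's quasi-likelihood test with Benjamini-Hochberg adjustment over all sites tested in the SSU part, 60 of the 98 sites were higher with DMS in WT (61.2%, against 50.1% of all sites) and 58 in H375A (59.2%, against 50% of all sites). A site is called here where this adjusted p was under 0.05. The same 53 sites were called in both genotypes, which is 88.3% of the WT calls and 91.4% of the H375A calls. Among called sites the median log2 ratio of DMS to untreated was 2.13 in WT and 2.12 in H375A.

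The 5' hinge segment was called at all 5 of its A and C in WT and at 2 of 5, C471 and A473, in H375A. A472, A474 and A476 were called in WT alone. Whether their response to DMS differed between genotypes is a separate test, given below, and that test called none of them. A283, the readable base of the 3' hinge segment, was called in both genotypes. Its mean rate in WT with DMS, 4.64% against 0.510% untreated, was among the highest of the stretch.

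**Figure D1:**
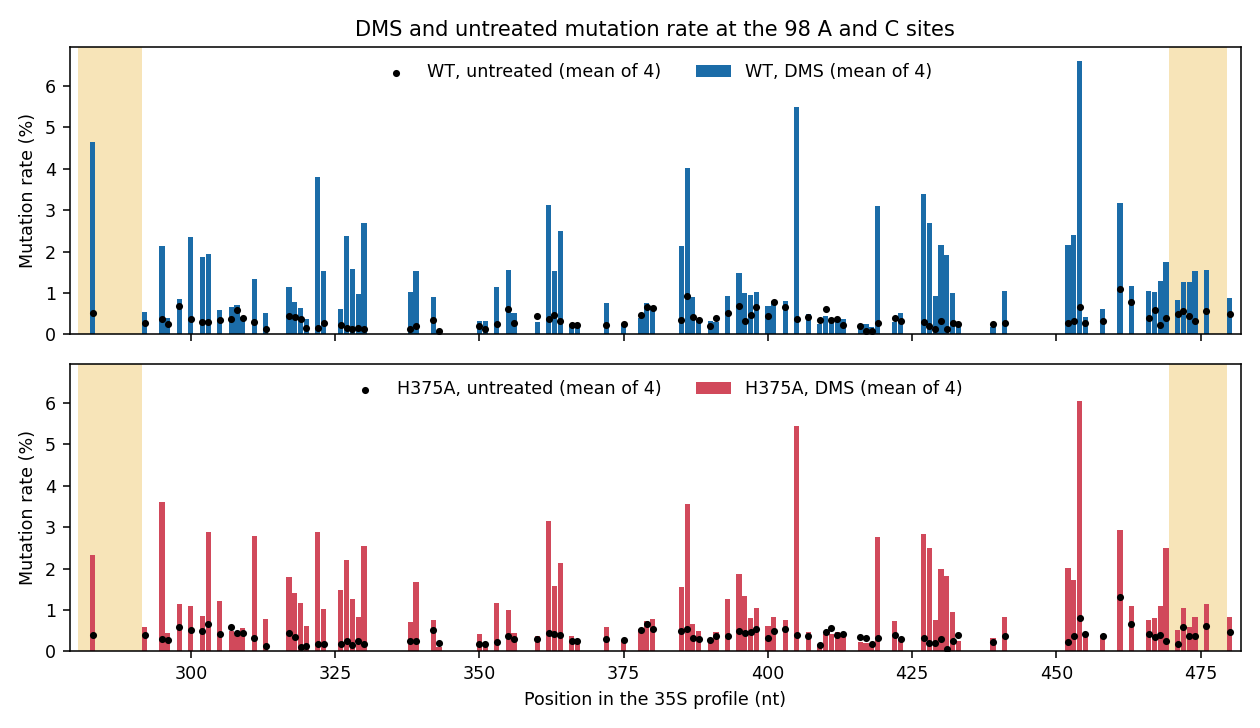
Mean mutation rate in percent at each of the 98 A and C sites against position in the 35S profile, WT above and H375A below, with bars for the mean of 4 DMS libraries, black points for the mean of 4 untreated libraries and shading for the hinge segments. The tall bars, C454 and A405, have nearly the same height in both genotypes, while A283 at the left is lower in H375A.

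The sites with the highest WT rate above untreated were, in order, C454, A405, A283, A322, A386, A427, A419, C362, C330 and A428. C454 had a mean DMS rate of 6.60% ± 1.28 (SD, n = 4) in WT and 6.04% ± 0.65 in H375A, and A405 had 5.49% ± 1.09 and 5.44% ± 1.10. Of these 10 sites, A283 and A322 were called between genotypes and the other 8 were not, with edgeR adjusted p between 0.436 and 1.00. Without DMS the highest WT rates were at A461, U370, A386 and U368, of 1.10%, 1.08%, 0.937% and 0.924%. Over the untreated libraries of both genotypes, the highest means were at U370, A461, U368 and U382, of 1.25%, 1.21%, 0.914% and 0.824%.

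To place these values on a secondary structure, the stretch was folded alone from its sequence by minimum free energy (ViennaRNA), with both hinge segments held unpaired because they are assigned to U3. The predicted fold, at -49 kcal/mol, had 2 long hairpin arms after position 332. The first ran from the helix of 333 to 337 with 387 to 391 up to a loop at 361 to 364, and the second from the helix of 392 to 395 with 462 to 465 up to a loop at 425 to 432. Before these arms the fold had only a short helix, of 299 to 301 with 305 to 307. The ends of the long arms are shown with their loops in capitals, since these loops hold several of the most reactive sites.
positions 356 to 369: cggucGCAAgacug
positions 422 to 435: ccgUGAAACACcgg
In the first loop C362, A363 and A364 had mean WT DMS rates of 3.13%, 1.53% and 2.49%, against 3.14%, 1.57% and 2.13% in H375A. In the second, A427 and A428 had 3.38% and 2.69% in WT and 2.84% and 2.50% in H375A. The G in the first loop, a base that DMS does not report on here, had 0.192% in WT. All 6 A and C of the second loop passed the filter on DMS signal, and their WT rates ran from 0.929% to 3.38%.

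Between the hinge segments, the 43 A and C predicted to be paired had a median DMS rate above untreated of 0.110 percentage points in WT and 0.0900 in H375A, and 10 of them were called with DMS in each genotype. The 48 predicted to be unpaired had medians of 1.05 and 1.14 percentage points, and 43 were called in WT and 44 in H375A. The prediction used no DMS value. Exceptions occurred both ways. C300, A385 and C395 were predicted paired and had WT rates of 1.98, 1.79 and 0.794 percentage points above untreated, whereas A309, predicted unpaired, had 0.0283. C300 was paired only through the short helix of 299 to 301 with 305 to 307.

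**Figure D2:**
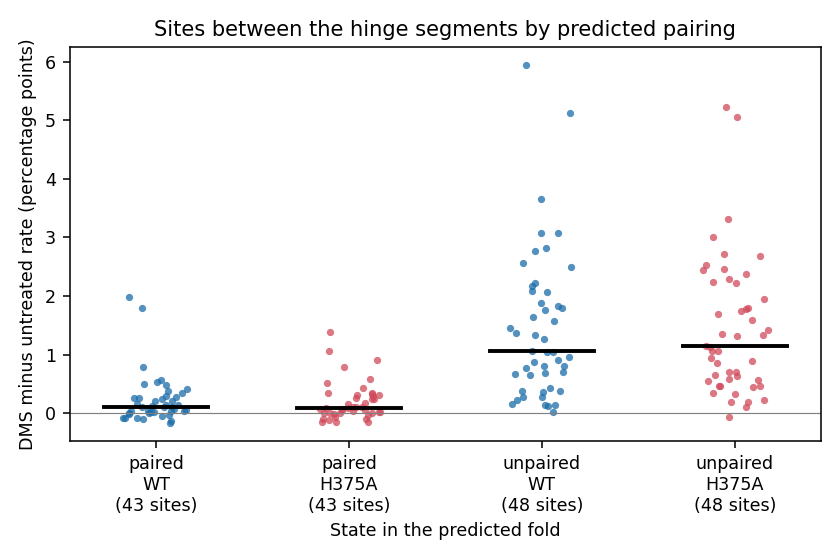
DMS rate minus untreated rate in percentage points at the 91 A and C sites between the hinge segments, split by predicted pairing and genotype, with a point per site (mean of 4 libraries) and a black line at the median. Paired sites sit near 0 with medians of 0.110 and 0.0900, and unpaired sites spread upward with medians of 1.05 and 1.14.

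The comparison of the genotypes asked where the scaled DMS rate differed between particles with WT and with H375A Has1. A site entered this test if DMS raised its mean rate above untreated by 0.2 percentage points or more. Of the 98 sites 64 did (44 A and 20 C), and 34 were under this limit. C356 and A292 were just inside, at 0.203 and 0.234 percentage points, and A350 and C403 just outside, at 0.183 and 0.179. Of the 64, 12 were called between genotypes by edgeR (18.8%, against 3.59% of the 725 sites tested in the SSU part). Such shares were not adjusted for depth, which is given by part below. Without the filter the same 12 of the 98 were called. H375A was higher at 5 (against 1.10% of all sites called higher) and lower at 7 (against 2.48% called lower). The median log2 change of the 64 was -0.11, beside 0.02 over all 725. Scaled rates of the genotypes did not overlap at 9 of the 64 (14.1%, against 5.79% of all sites).

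The called sites lay at both ends. Of the 17 tested sites up to position 326, 10 were called, in both directions. Position 326 is that of the last call before the 5' hinge segment, so the next 41 tested sites, from 327 to 469, held no call by this choice of boundary, and 7 of them had an unadjusted p under 0.05. The lowest edgeR adjusted p among them was 0.106, at C355. The last 2 called sites, A473 and A474, were neighbours in the 5' hinge segment. For comparison, the 5' ETS before position 281 had 5 calls among 53 tested sites (9.43%), the 5' ETS after the stretch 0 among 44, and 18S 9 among 538 (1.67%). These shares were not adjusted for depth, and fewer reads make a call less likely. Median depth at the tested sites ran over the DMS libraries from 597.5 to 10583.5 in the stretch and from 611 to 10802 before it. It ran from 221.5 to 8413.5 after the stretch and from 387.5 to 4841 in 18S.

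**Figure D3:**
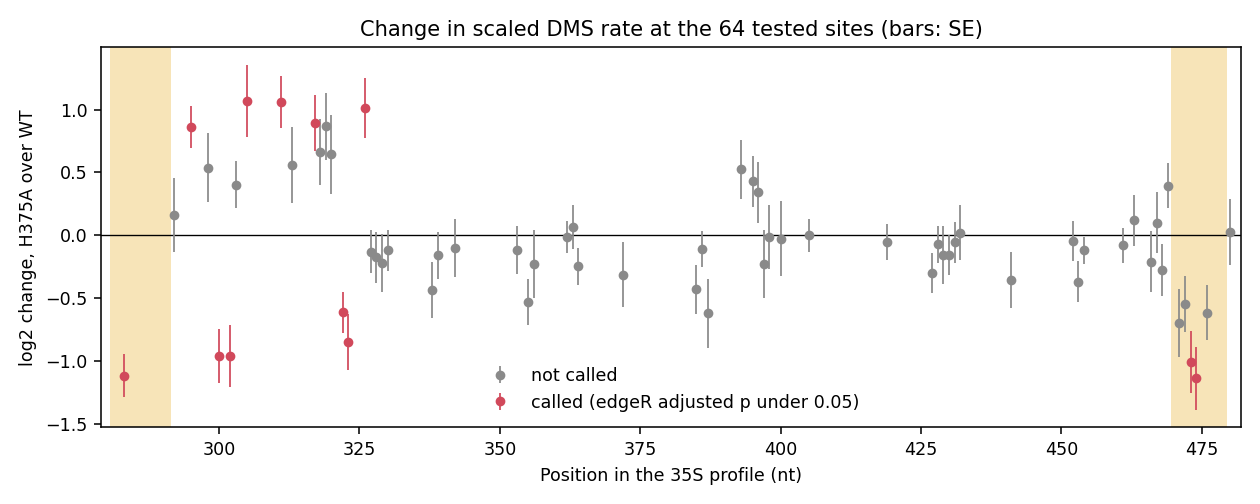
Log2 change of the scaled DMS rate, H375A over WT, at the 64 tested sites against position in the 35S profile, with bars for the standard error and called sites in red; shading marks the hinge segments. The 12 called sites lie between -1.14 and 1.07, 10 of them at position 326 or before, and all 5 sites of the 5' hinge segment lie below 0.

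In the 3' hinge segment, A283 fell in H375A. In replicates 1 to 4 of WT its scaled rates were 6.73%, 3.96%, 4.05% and 3.63%, and in those of H375A 3.83%, 1.58%, 1.92% and 2.05%. H375A replicate 1 lay above WT replicate 4, so the groups overlapped by that library, and in either genotype replicate 1 was the highest. The log2 change was -1.12 (standard error, SE, 0.17), with an edgeR adjusted p of 5.15e-06, the lowest of the stretch. With both libraries numbered 1 left out it was -1.08.

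In the 5' hinge segment, A473 and A474 fell in H375A, and the other 3 sites did not pass the test. A473 had scaled rates of 1.26%, 1.15%, 1.31% and 1.16% in WT replicates 1 to 4 and of 0.834%, 0.665%, 0.620% and 0.204% in H375A. All 4 H375A libraries lay below all 4 WT libraries, with a log2 change of -1.01 (SE 0.25) and an edgeR adjusted p of 0.00752. A474 had 2.33%, 1.42%, 1.42% and 0.893% in WT and 1.01%, 0.521%, 0.558% and 1.23% in H375A. Here H375A replicates 1 and 4 lay above WT replicate 4, and the log2 change was -1.14 (SE 0.25) with an edgeR adjusted p of 0.00245.

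C471, A472 and A476 had log2 changes of -0.70, -0.55 and -0.62, with edgeR adjusted p of 0.203, 0.246 and 0.124 and overlapping libraries. With both libraries numbered 1 left out, a setting that was not planned, A476 passed as well, at -0.66 and an edgeR adjusted p of 0.0256. Among planned settings, scaling from 25S sites gave -0.75 and an edgeR adjusted p of 0.0398. Leaving out H375A replicate 2 gave -0.37 and leaving out WT replicate 3 gave -0.43, with edgeR adjusted p of 0.723 and 0.672. The mean scaled rate of the whole 5' hinge segment was 1.25% ± 0.27 (SD, n = 4) in WT and 0.816% ± 0.165 in H375A. Individual WT libraries had 1.37%, 1.28%, 1.48% and 0.863% and H375A libraries 1.02%, 0.631%, 0.748% and 0.871%. WT replicate 4 lay among the H375A libraries.

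**Figure D4:**
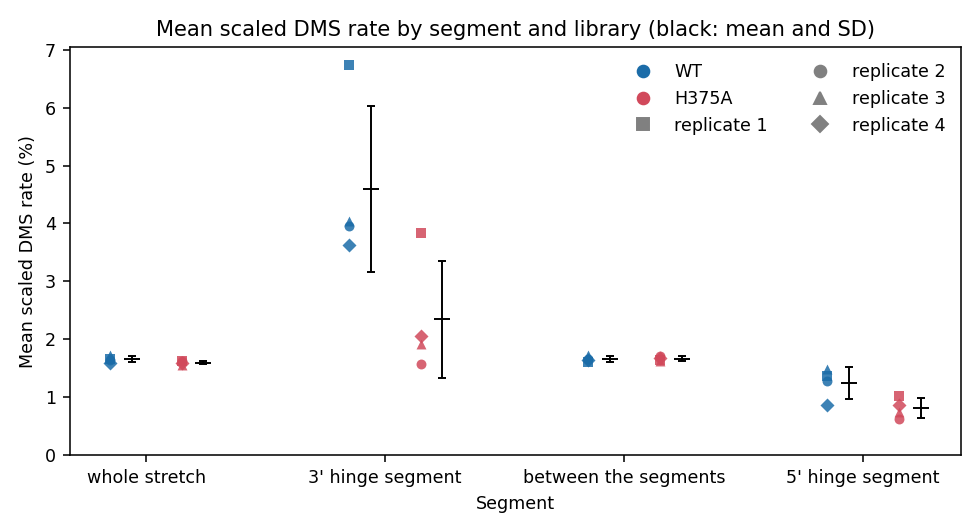
Mean scaled DMS rate in percent over the tested sites of the whole stretch, the 3' hinge segment (A283 alone), the part between and the 5' hinge segment, with a symbol per DMS library and black bars for the mean and SD of 4. WT and H375A coincide for the part between. For the whole stretch the H375A mean is slightly lower, and WT replicate 4 alone lies within the H375A libraries. In both hinge segments the H375A mean is lower with overlapping libraries.

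Between position 292 and 326, next to the 3' hinge segment, 5 sites rose and 4 fell in H375A, often within a few nucleotides of each other. A295 had scaled rates of 2.04%, 2.21%, 2.30% and 1.66% in WT and 1.68%, 4.25%, 4.13% and 3.77% in H375A. Replicates 2, 3 and 4 of H375A were above all WT libraries, and replicate 1 was within them. The log2 change was 0.86 (SE 0.17; edgeR adjusted p 0.000494).

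C300 had scaled rates of 2.72%, 1.86%, 1.92% and 2.62% in WT and 1.36%, 1.18%, 1.04% and 0.791% in H375A. The groups did not overlap, and C300 fell by 0.96 on the log2 scale (SE 0.21; edgeR adjusted p 0.0025). A302 had 1.55%, 1.64%, 1.80% and 2.16% in WT and 1.44%, 0.960%, 0.947% and 0.143% in H375A. It fell by 0.96 as well (SE 0.25, edgeR adjusted p 0.0113), again without overlap. The nearest libraries of the genotypes rested on few mutated reads, 8 in WT replicate 1 and 5 in H375A replicate 1. H375A replicate 4 had 1. A305, only 3 nucleotides on, rose, from 0.183%, 0.568%, 0.792% and 0.646% in WT to 0.529%, 2.01%, 1.28% and 0.832% in H375A. H375A replicate 1 was inside the WT range there, and the log2 change was 1.07 (SE 0.29, edgeR adjusted p 0.0163). In WT, A305 was not called with DMS, at a mean of 0.590% against 0.338% untreated (edgeR adjusted p 0.208). Its lowest WT value, 0.183%, rested on 1 mutated read.

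C311 rose from 0.709%, 1.17%, 1.23% and 1.92% in WT to 3.62%, 3.04%, 2.37% and 2.13% in H375A. Every H375A library was above every WT library, with a log2 change of 1.06 (SE 0.21; edgeR adjusted p 0.000494). C317 rose from 1.14%, 0.896%, 1.04% and 1.30% to 1.14%, 2.56%, 1.81% and 1.45%, with a log2 change of 0.89 (SE 0.22; edgeR adjusted p 0.00756). H375A replicate 1 again lay in the WT range. The 3 A that directly follow C317 were also above 0 but not called, with log2 changes of 0.66 at A318, 0.87 at A319 and 0.64 at A320, and at A318 and A319 the groups did not overlap.

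The neighbouring bases A322 and A323 fell. A322, among the most DMS-reactive bases of the stretch in WT, had scaled rates of 3.43%, 3.58%, 3.79% and 3.82% in WT and 4.75%, 2.18%, 2.10% and 2.68% in H375A, so H375A replicate 1 was the highest library of all 8 and the other 3 were the lowest. Its log2 change was -0.61 (SE 0.16; edgeR adjusted p 0.0144). A323 had 1.22%, 1.94%, 1.55% and 1.14% in WT and 1.44%, 0.587%, 0.905% and 1.17% in H375A, with H375A replicates 1 and 4 inside the WT range and a log2 change of -0.85 (SE 0.22; edgeR adjusted p 0.0129). C326 rose without overlap, from 0.361%, 0.790%, 0.929% and 0.190% to 0.964%, 1.49%, 1.46% and 1.84%, with a log2 change of 1.01 (SE 0.24; edgeR adjusted p 0.00449).

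**Figure D5:**
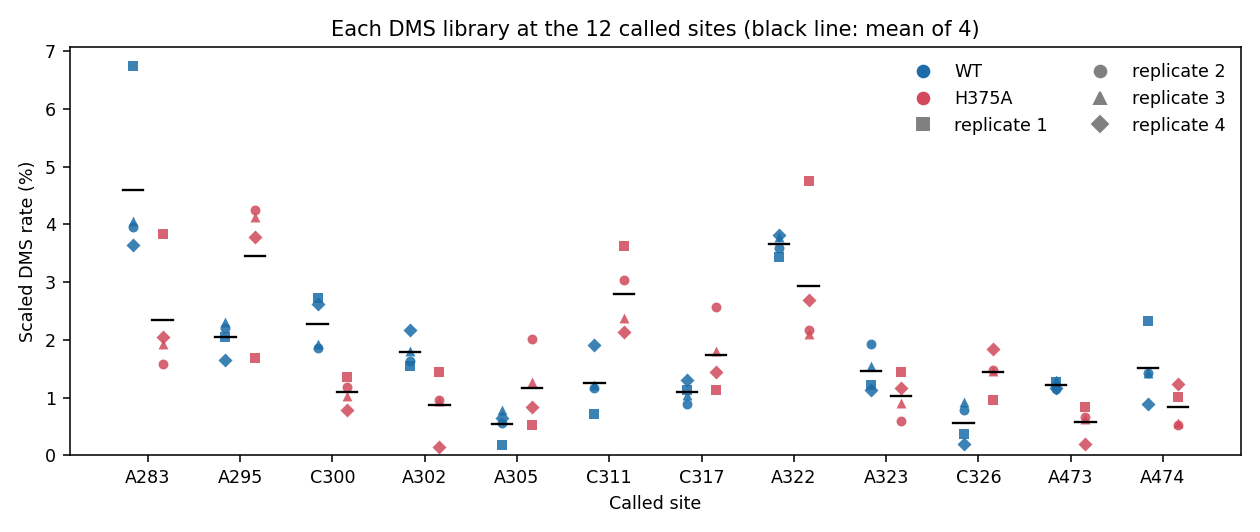
Scaled DMS rate in percent of each DMS library at the 12 called sites, WT in blue and H375A in red, with a symbol for each replicate number and a black line at the mean of 4. At A295, A305, C317 and A322 the square of H375A replicate 1 lies on the WT side or beyond, away from the other H375A libraries.

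H375A replicate 1 reached the WT range at 7 of the 12 called sites and replicate 4 at 2, while H375A replicates 2 and 3 reached it at none. On the WT side, replicate 4 reached the H375A range at 6 of the 12 and replicates 1, 2 and 3 at 3 each. With both libraries numbered 1 left out the same 12 sites were called, and 14 in all. Replicates 2 and 3 alone gave 16 calls, and replicates 1 and 4 alone gave 0, with 5 of the 12 at an unadjusted p under 0.05 and 11 of 12 in the same direction. In that shallow pair the log2 changes of C317, A322, A323 and A474 were 0.11, -0.08, 0.11 and -0.29. Without H375A replicate 3, the deepest library, 3 sites were called, namely A283, A295 and C311. Without WT replicate 3 there were 7 calls, and without WT replicate 2 or H375A replicate 2 there were 8 each. DESeq2 called 4 of the 12, A283, A295, C300 and C311, and had all 12 at an unadjusted p under 0.05.

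The calls above compare DMS libraries alone. In the untreated libraries the genotypes were called different by edgeR at 0 of the 200 nucleotides of any base (0% of all sites), and 5 had an unadjusted p under 0.05 (against 1.95% of all sites). DESeq2 also called 0 there, with 2 at an unadjusted p under 0.05. A fit of all 16 libraries asked whether the response to DMS itself differed between genotypes. It called 0 of the 64 sites by edgeR (0% of all 725), and 12 had an unadjusted p under 0.05, which is 18.8% against 5.93% of all sites. The lowest adjusted p of this edgeR interaction was 0.122, at A319.

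At the 41 tested sites from 327 to 469, a part whose limits were set by where the calls lay, log2 changes ran from -0.62 to 0.52 with a median of -0.12, and 9 were above 0. Across all 64 tested sites of the stretch, the log2 mean scaled rates of WT and H375A had a Pearson r of 0.819, a description over sites that share libraries. C355 was the one site of this part, apart from C469 at its end, where the groups did not overlap. There the WT libraries had 1.80%, 1.39%, 1.37% and 1.53%, and the H375A libraries 0.869%, 0.805%, 1.08% and 1.14%.

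Averaged over the whole stretch, the genotypes gave close values. The mean scaled rate of the 64 tested sites was 1.66% ± 0.05 (SD, n = 4) in WT and 1.60% ± 0.03 in H375A. For the part between the hinge segments it was 1.66% ± 0.05 and 1.67% ± 0.04. In both cases the libraries of the genotypes overlapped, for the whole stretch through WT replicate 4 alone.

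When the hinge segments were left free to pair, the predicted fold, at -59.7 kcal/mol, kept both long arms but not the short helix of 299 to 301. It added a helix of 281 to 286 with 321 to 326 and one of 287 to 294 with 308 to 315, which pair the 3' hinge segment with the sequence just downstream of it. Inside the latter it added a short helix of 296 to 298 with 304 to 306. It also added a short helix of 468 to 471 with 475 to 478 in the 5' hinge segment. Of the 7 sites that fell in H375A 3 were paired in it, and of the 5 that rose 2 were unpaired. Among all A and C of the stretch, 56 were paired in this fold and 42 unpaired. Whether the called sites departed from these shares was not tested. Both folds treat the stretch alone, without U3, proteins or the rest of the pre-rRNA.

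Relative to 18S, the stretch was covered less deeply in H375A. Mean effective depth of the stretch over that of 18S was 2.60, 2.90, 3.15 and 2.71 in the WT DMS libraries and 1.73, 2.37, 2.43 and 2.39 in H375A. The groups did not overlap, with means of 2.84 ± 0.24 and 2.23 ± 0.34 (SD, n = 4) and a two-sided exact permutation p of 0.0286, as low as 4 values against 4 allow, which was 0.171 after adjustment over 9 comparisons. In the untreated libraries the means were 2.81 ± 0.28 and 2.24 ± 0.38, with overlap and an exact permutation p of 0.0571 (0.171 adjusted). Set against the rest of the 5' ETS in place of 18S, the log2 difference was 0.01 in the DMS and 0.03 in the untreated libraries, so the lower ratio was shared by the 5' ETS around the stretch.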

How the data were processed

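The deposited profiles gave, for each nucleotide of a 6647 nt pre-rRNA sequence, counts of mutated reads and of effective depth, and the authors' fraction of reads mutated. Per the file headers and values, this fraction is the first count over the second, with no untreated rate subtracted. The sources used here do not give the aligner, mutation caller, filters or genome build. Reads were not identified as molecules. Filters, and the handling of deletions or neighbouring mutations, act on every rate.

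Members, segments and lists were chosen with earlier results of these data known. Hinge positions were taken as given, and the U3 sequence was not used. For mean rates over several sites, therefore, no p is given between genotypes. Position 1 is the first nucleotide of the profile. Sites needed a depth of at least 100 in all 16 libraries, an untreated rate under 5% and, between genotypes, the 0.2 percentage point excess over untreated, which left 725 of the 1236 A and C up to A2 (position 2712). DMS against untreated and the untreated genotypes were tested at sites with a mean of at least 2 mutated reads, at 1063 sites in WT, 1141 in H375A and 2365 sites of any base.

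Mutated reads were fitted with edgeR 4.0.16 (quasi-likelihood, R 4.3.3) with log effective depth and, between genotypes, the log scaling factor as offset. P-values were adjusted over all sites tested, and SE came from the test statistic. Other values used exact two-sided permutation tests over libraries. ViennaRNA 2.7.2 predicted folds, a step added after the data were seen. Scripts were tested on simulated data. Alternatives used DESeq2 1.42.0, limma 3.58.1, a quasi-binomial model, other scalings, depths and filters, thinned reads, a replicate block and left-out libraries. The submitters describe each DMS sample as having its own untreated control. The main tests of DMS against untreated and of the interaction did not use this pairing. Same-numbered DMS and untreated libraries were paired in the replicate block, where untreated rates were subtracted by library, and in the count of G and U pairs.

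The rule for named sites took all called sites and all A and C of the hinge segments. It also took the 10 sites with the highest WT rate above untreated and the 4 with the highest untreated rate over both genotypes. Other sites were named after their values were seen.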

Additional observations from a re-analysis of the deposited data

Results flagged for a closer look

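Among 126 sets of 4 libraries, 7 had a library far from the other 3, with 6.3 expected by chance at 1 in 20. The size of each is the gap from that library to its nearest neighbour as a share of the range of the 4. WT replicate 1 was high at A283 (gap 0.866), which is also the value of the 3' hinge segment (0.866). H375A replicate 1 was low in the DMS depth of the stretch over 18S (0.915). For scaled DMS rates, WT replicate 1 was low at A386 (0.932) and WT replicate 4 low at C471 (0.905). Untreated rates had an outlying library at C326 in WT (0.917) and at C362 in H375A (0.831).

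The 102 G and U of the stretch entered no test of DMS rates above. Their mean DMS rate over the untreated rate was 1.19 in WT and 1.14 in H375A, higher in 4 of 4 pairs of each genotype. Each had an unpaired exact permutation p of 0.0286, the smallest 4 against 4 libraries can give; over 4 pairs the smallest is 0.125.

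The DMS rate above untreated at A283 was 4.13 ± 0.88 percentage points in WT and 1.93 ± 1.09 in H375A (SD, n = 4). The difference was -2.19, with an exact permutation p of 0.0286 (0.114 adjusted over 4 segments). These rates were not scaled. For the scaled DMS rate at A283 the exact permutation p between genotypes was 0.0571 (0.171 adjusted). For the scaled rate with untreated rates subtracted it was 0.114 (0.206 adjusted). The interaction tested by edgeR for this site had an adjusted p of 0.514.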

How the results depend on the processing

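Against the 12 calls between genotypes, DESeq2 gave 4, a quasi-binomial model per site 1, limma on background-subtracted rates 0 (7 of the 12 at an unadjusted p under 0.05), libraries thinned to the shallowest 2, and numbers 1 and 4 alone 0. The replicate block gave 13, and leaving out a library 3 to 13. A term for numbers 1 and 4 against 2 and 3 gave 14. That term, the fits of numbers 1 and 4 or 2 and 3 alone, and leaving out both libraries numbered 1 were not planned. Same-numbered WT and H375A libraries deviated together with correlations of 0.16, 0.069, 0.17 and 0.0039. Of the WT libraries, 2 of 4 correlated best with their own number. The main test did not take the numbers as pairs. These correlations used scaled rates, which had lost any shift in overall rate shared by a number. They cannot show that the numbers are unrelated. Whether a batch was shared by number was not itself tested. The replicate block, with a term for each number, allowed for one and still called all 12. All 12 kept their direction in every setting run except A323 (0.11 with numbers 1 and 4 alone). Of the sites not called, A472 and A476 turned to 0.39 and 0.28 there, and C471 to 0.038 percentage points with limma.

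Between the hinge segments the log2 difference of the means, 0.0075, turned to -0.061 for the median site, -0.019 unscaled, -0.12 with scaling from 25S, and -0.0056 to 0.033 over left-out libraries. The change of the stretch less that of the 5' ETS after it, 0.087, turned to -0.070 for the median site, and less that of the 5' ETS before it, 0.026, ran from -0.00050 to 0.059 over left-out libraries. The log2 depth ratio turned to 0.0088 (DMS) and 0.026 (untreated) against the rest of the 5' ETS. DMS over untreated, paired as a replicate block, kept log2 ratios of 1.79 and 1.71 (whole stretch, WT and H375A), 3.42 (A283, WT), 1.79 and 1.74 (between) and 1.41 and 1.00 (5' hinge segment), but 4 pairs allow no exact p below 0.125, against 0.0286 unpaired. Leave-one-out values there dropped the DMS library alone. A283 in H375A had 0 mutated reads in some untreated libraries and no log2 ratio was tested. Depth limits single sites in the shallow libraries. For example, H375A replicate 4 had 1 mutated read at A302 and 2 at A473, and WT replicate 1 had 1 at A305.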
